A study of Mus musculus with 4 samples.

Results

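Wnt pathway and colon stemness genes were followed in single cells from tumours of MC38, a colon carcinoma line of the mouse, grown in wild-type and FOXP3 humanized mice. The 9 genes were given as a list: Ctnnb1, Tcf7l2, Axin2, Nkd1, Lgr5, Sox9, Cd44, Myc and Ccnd1. They are 9 of 26172 genes listed for either library. They were read in deep barcodes, those with 5000 or more unique molecular identifiers (UMIs) and no UMI of Cd3e, Cd3d, Cd3g or Ptprc, by library and by level of the proliferation gene Mki67. The question was whether Wnt targets rise and fall together from cell to cell. Hosts were 10 weeks old, received no treatment and gave tumours on day 20. One group is the cDNA library of wild-type hosts and the other that of FOXP3 humanized hosts, and the same tumour line was placed in both. Each genotype had 1 cDNA library, so n = 1 per genotype, no test was possible between genotypes, and genotype, host and library cannot be told apart. The sources used here do not say which stretch of FOXP3 is humanized, nor whether animals were pooled.

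In the canonical Wnt pathway, secreted Wnt ligands bind Frizzled and LRP receptors and stop the destruction complex from degrading β-catenin. β-Catenin, encoded by Ctnnb1, then enters the nucleus and acts with TCF and LEF proteins, of which Tcf7l2 is the main one in intestinal epithelium. Lgr5 marks the stem cells of intestinal crypts, and Axin2 and Nkd1 are feedback inhibitors widely used as readouts of the pathway. Colorectal tumours commonly carry mutations that keep β-catenin stable.

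TCF proteins recognise short words, and the proximal promoters of the feedback genes are shown because Axin2 and Nkd1 serve as readouts of the pathway, with the window of Tcf7l2 that held such a word. RefSeq promoter windows, from 250 bases before to 50 bases after the gene start on build GRCm38.p6, matched 5 of the 9 genes. They were searched on both strands for the word CTTTGAA, the word CTTTGAT, the word CTTTGTA and the word CTTTGTT, which share their first 5 letters. The Axin2 window at chr11:108920099-108920398 (plus strand) and the Nkd1 window at chr8:88527383-88527682 (plus strand) held none, nor did those of Cd44 and both starts of Ctnnb1. Of the Tcf7l2 windows, the first held none and the second, at chr19:55895071-55895370 (plus strand), held 1, in capitals below at base 237. Among all 32851 windows of this length, 16.9% held at least 1 of the words. A match is only a match of letters, and no match refers only to these 300 bases.
Axin2: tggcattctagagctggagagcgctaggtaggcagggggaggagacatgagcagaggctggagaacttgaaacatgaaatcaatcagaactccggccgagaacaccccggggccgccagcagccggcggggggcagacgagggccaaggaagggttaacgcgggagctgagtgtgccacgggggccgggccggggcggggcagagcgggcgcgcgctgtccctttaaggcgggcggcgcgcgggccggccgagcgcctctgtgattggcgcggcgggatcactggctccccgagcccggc
Nkd1: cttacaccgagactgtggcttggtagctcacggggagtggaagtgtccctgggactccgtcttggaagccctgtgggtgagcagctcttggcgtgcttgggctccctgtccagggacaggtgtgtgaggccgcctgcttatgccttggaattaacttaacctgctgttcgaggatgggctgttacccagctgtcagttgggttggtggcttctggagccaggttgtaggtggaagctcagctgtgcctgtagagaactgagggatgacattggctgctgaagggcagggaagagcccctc
Tcf7l2, second start: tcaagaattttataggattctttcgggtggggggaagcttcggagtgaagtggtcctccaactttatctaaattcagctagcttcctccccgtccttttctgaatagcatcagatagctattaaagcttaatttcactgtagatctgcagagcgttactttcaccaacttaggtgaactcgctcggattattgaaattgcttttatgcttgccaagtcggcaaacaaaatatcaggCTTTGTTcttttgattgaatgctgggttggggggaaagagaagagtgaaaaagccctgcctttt

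Deep barcodes made up 6705 of 7691 wild-type barcodes (87.2%) and 9671 of 11087 humanized barcodes (87.2%). Their median was 16866 UMIs for wild-type and 12522 for humanized hosts, and their sums were 129144384 and 140575771 UMIs. The labels describe immune cells, but the deep barcodes carried few leukocyte transcripts. All 10 leukocyte and myeloid markers together, Ptprc at 0 by the selection, came to 6.11 and 5.53 CPM (UMIs of a gene scaled to a sum of 1000000). The 8 T cell markers, with the 3 CD3 genes at 0 by the selection, came to 2.42 and 2.18 CPM, and 5 endothelial markers to 2.04 and 1.70 CPM. Fibroblast markers came to 177 and 215 CPM over 9 genes, of which Lum had 1 and 0 UMIs. Epithelial markers, of which 7 of 10 were listed, came to 5.86 and 3.19 CPM. The libraries shared 1551 barcode names, and 0 of these had the same total in both. Intervals below are 95% intervals and cover counting error only.

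The core of the pathway was detected at near equal levels in the deep barcodes of both libraries. Ctnnb1 had 14016 wild-type and 15031 humanized UMIs, 109 and 107 CPM. Tcf7l2 had 2663 and 2726 UMIs, 20.6 and 19.4 CPM. The log2 ratio of humanized over wild-type was -0.02 (interval -0.05 to 0.01) for Ctnnb1 and -0.09 (-0.17 to -0.01) for Tcf7l2. Ctnnb1 was seen in 77.3% and 69.4% of barcodes and Tcf7l2 in 28.5% and 22.4%, beside the difference in depth.

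The stem cell and feedback genes were close to absent. Lgr5, the receptor for R-spondins that marks crypt stem cells, had 9 wild-type and 4 humanized UMIs, each in a barcode of its own. Nkd1 was not listed for the wild-type library, which allows up to 0.0232 CPM at a floor of 3 counts, and had 1 UMI in the humanized library. Axin2, the scaffold that rebuilds the destruction complex, had 252 and 272 UMIs, 1.95 (1.72 to 2.21) and 1.93 (1.71 to 2.18) CPM. It was seen in 3.31% and 2.71% of barcodes, with at most 3 and 2 UMIs in one. Its log2 ratio was -0.01 (-0.26 to 0.24), so the intervals of the levels overlap almost fully.

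Targets that many other pathways also drive had many UMIs. Ccnd1, which encodes the G1 regulator cyclin D1, had 89415 and 96132 UMIs, 692 (688 to 697) and 684 (680 to 688) CPM. Sox9, a transcription factor of crypt progenitors, had 80367 and 71077 UMIs, 622 (618 to 627) and 506 (502 to 509) CPM. Both were found in more than 9 in 10 barcodes of each library. The adhesion receptor gene Cd44 had 43626 and 44294 UMIs, 338 and 315 CPM. The growth regulator Myc had 11748 and 10534 UMIs, 91.0 and 74.9 CPM, with intervals that do not overlap.

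Of the 9 genes, 7 had at least 100 UMIs over both sums, and 0 of these 7 were 1.5-fold apart between the libraries. Of all 13728 genes measured this way, 13.5% were 1.5-fold apart, 12.9% lower and 0.634% higher in the humanized library. Sox9 had a log2 ratio of -0.30 (-0.31 to -0.29) and Myc of -0.28 (-0.32 to -0.24). The other targets were nearer to equal, Cd44 at -0.10 and Ccnd1 at -0.02. The median gene itself stood at -0.21. Measured against that median, Sox9 was at -0.09 and Myc at -0.07, while Ccnd1 at 0.19, Ctnnb1 at 0.19, Tcf7l2 at 0.12, Cd44 at 0.11 and Axin2 at 0.20 changed sign. Sox9 and Myc kept their sign.

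Barcodes with CD3 transcripts, as T cells carry, were set beside the deep ones as a kind of cell not expected to make Sox9. They were shallow, with medians of 1796.5 and 1567.5 UMIs in 84 wild-type and 134 humanized barcodes, so each barcode was thinned at random to 1000 UMIs. Sox9 was then seen in 44.0% of deep wild-type barcodes against 3.57% (0.743 to 10.1) of the CD3 barcodes. In the humanized library these shares were 37.0% and 11.2% (6.40 to 17.8). Ccnd1 was seen in 44.7% against 5.95% (1.96 to 13.3) and in 43.4% against 4.48% (1.66 to 9.49).

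Cd44, which activated T cells also carry, was alike in both kinds of barcode. Its shares were 26.7% against 27.4% (18.2 to 38.2) in the wild-type and 25.4% against 24.6% (17.6 to 32.8) in the humanized library. Axin2 was seen in 0.224% and 0.238% of thinned deep barcodes and in 0 of the CD3 barcodes, whose upper limits of 4.30% and 2.72% lie above those shares. The CD3 barcodes were too few and shallow to decide, so Axin2 in the deep barcodes could not be set apart from background. In full counts they held 1 Axin2 UMI in the wild-type library (6.18 CPM, 0.156 to 34.4) and 0 in the humanized library. Without thinning, Myc in the CD3 barcodes stood at 18.5 and 21.2 CPM, from 3 UMIs (the floor) and 5 UMIs. Ctnnb1 stood there at 43.3 and 38.1 CPM, from 7 and 9 UMIs. In these full counts all 4 values lie below the deep barcodes of the same library, and their intervals do not overlap. After thinning, wild-type Myc (8.17% against 1.19%, 0.0301 to 6.46) and humanized Ctnnb1 (9.2% against 1.49%, 0.181 to 5.29) stayed apart. Wild-type Ctnnb1 was then seen in 10.8% against 5.95% (1.96 to 13.3). Humanized Myc was seen in 6.48% against 2.99% (0.819 to 7.47). For this pair of values the CD3 intervals reach past the deep shares, so the separation depends on the measure.

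**Figure D1:**
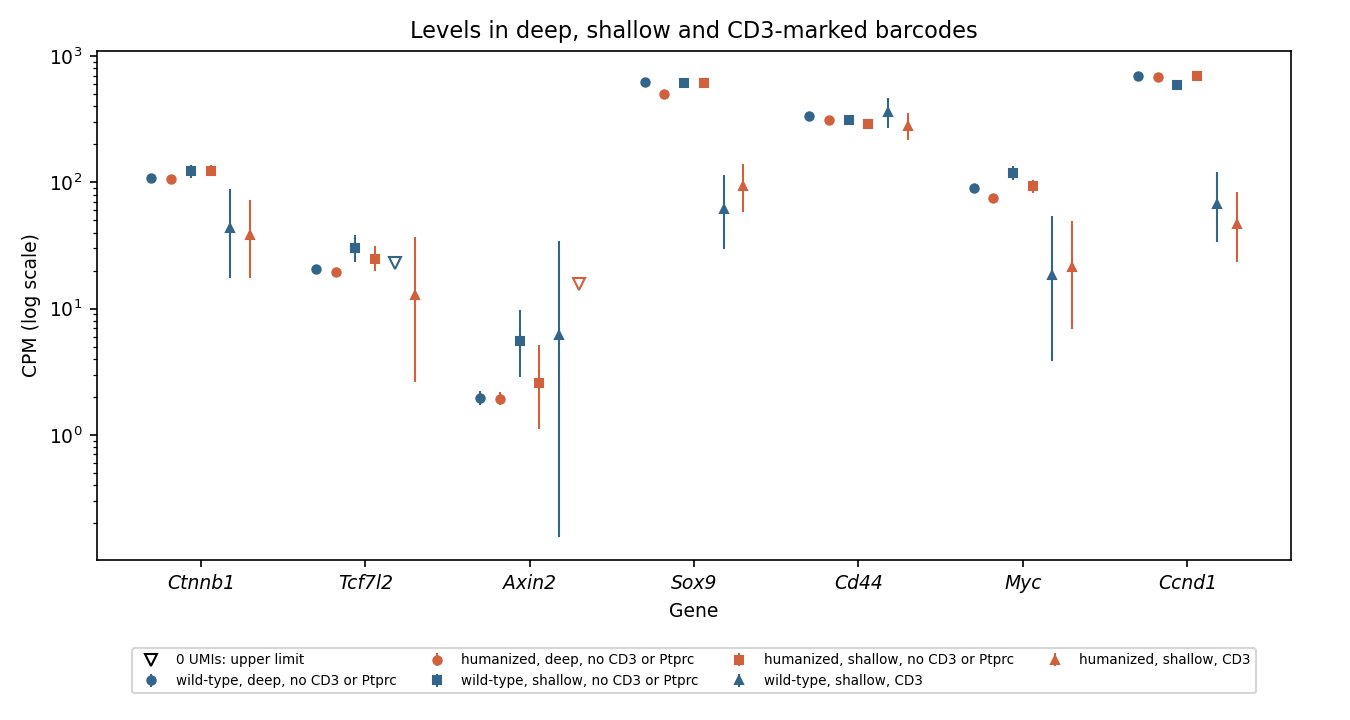
Level in CPM (log axis) of 7 genes in deep barcodes, in shallow barcodes without CD3 or Ptprc and in shallow barcodes with 2 or more CD3 UMIs, by library (colour); bars are 95% counting intervals and open triangles upper limits where there was no UMI. In these unthinned counts Sox9, Ccnd1, Myc and Ctnnb1 were lower in the CD3 barcodes than in the deep ones, and Cd44 was not beyond its intervals.

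The rest of the pathway was read from lists of ligands, receptors, inhibitors, relay proteins, nuclear effectors and targets. Ligands and their release machinery were detected in the deep barcodes. Wls, which carries Wnt proteins to the surface, stood at 66.7 and 71.1 CPM, and Wnt5a at 12.7 and 11.4 CPM. R-spondins, the ligands of Lgr5, were nearly absent: Rspo1 had 10 and 12 UMIs, Rspo4 had 1 and 0, Rspo2 had 0 in both and Rspo3 was not listed for either library. Of 25 genes in that list, 9 were measured, and 1 was 1.5-fold lower in the humanized library, a share near the 12.9% of all genes. This was Wnt5b, a ligand mostly of the β-catenin-independent branch, at 19.1 (18.3 to 19.9) and 10.2 (9.69 to 10.8) CPM, a log2 ratio of -0.90.

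Receptors were covered by Fzd2 at 47.5 and 50.3 CPM, Lrp6 at 17.4 and 12.2 CPM and Lrp5 at 14.7 and 10.9 CPM. Lgr4, the relative of Lgr5, had 587 and 452 UMIs against 9 and 4 of Lgr5. Of 18 receptors, 12 were measured and 0 were 1.5-fold apart, with a median log2 ratio of -0.24 beside -0.21 for all genes. Secreted and surface inhibitors were led by Dkk2 at 42.8 and 38.6 CPM. Of 17, 4 were measured and 0 were 1.5-fold apart. The target-type inhibitors differed in level. Znrf3, which removes Frizzled from the surface, had 673 and 535 UMIs, whereas its partner Rnf43 had 8 and 3 and the Wnt deacylase Notum 3 and 0.

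The scaffold and kinase genes of the destruction complex were detected. Axin1 stood at 53.4 and 41.5 CPM, Gsk3b at 79.7 and 69.0 CPM, Csnk1a1 at 86.6 and 68.5 CPM and Apc at 10.1 and 7.57 CPM. Of 17 genes in this list, 15 were measured and 0 were 1.5-fold apart, with a median log2 ratio of -0.26. Nuclear effectors gave 14 measured of 15 and 0 apart. Tcf7, a relative of Tcf7l2, stood at 20.5 and 22.2 CPM and Lef1 at 1.95 and 1.87 CPM.

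Among 27 Wnt targets, a list that holds 7 of the 9 genes above, 17 were measured and 0 were 1.5-fold apart in either direction, with a median of -0.06. Levels of the targets ran from abundant to near absent. Besides the genes above, the AP-1 genes Jun (630 and 639 CPM) and Fosl1 (295 and 246 CPM) were abundant. Tcf7 (above), Plaur at 90.9 and 80.1 CPM, Vegfa at 54.8 and 46.1 CPM, Ephb2 at 8.53 and 8.33 CPM and Ephb3 at 2.44 and 2.26 CPM lay between. The crypt genes Ascl2 (3 and 4 UMIs) and Prox1 (1 and 1 UMI) were near 0, and Sp5 and Mmp7 were not listed for either library.

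Of 17 colon stemness genes, 8 were measured. The regenerative markers Ly6a (602 and 642 CPM) and Anxa1 (390 and 490 CPM) were abundant, whereas Smoc2 had 9 and 11 UMIs and Olfm4 was not listed for either library. Clu, a marker of revival stem cells, was the 1 gene 1.5-fold lower in the humanized library, at 36.7 and 15.7 CPM, a log2 ratio of -1.22 (-1.30 to -1.15). As with the ligands, 1 of 8 is near the 12.9% of all genes. Colon differentiation genes gave 0 measured of 13, with summed levels of 0.465 and 0.334 CPM.

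**Figure D2:**
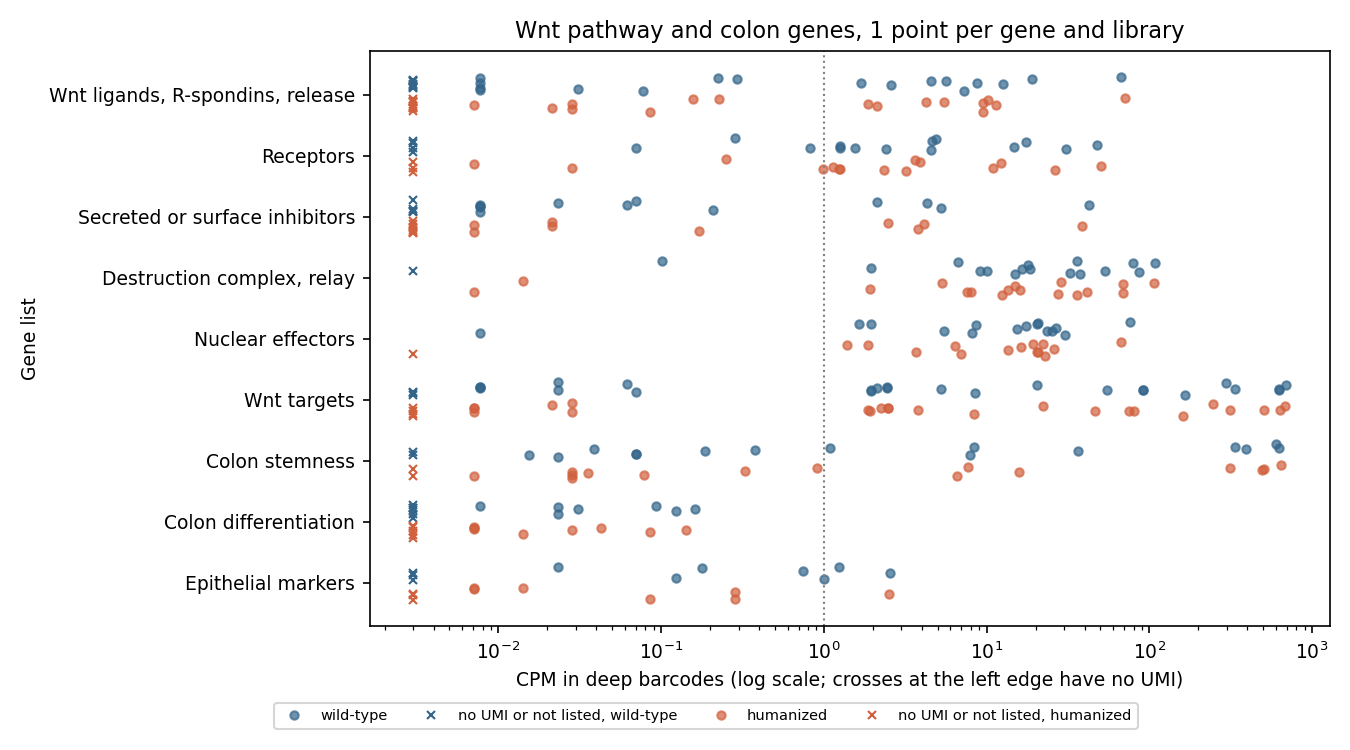
Level in CPM (log axis) of each gene of the Wnt, colon and epithelial lists in deep barcodes, 1 point per gene and library, with crosses for genes without a UMI or not listed; the dotted line is 1 CPM. Most genes of the destruction complex and of the nuclear effectors and part of the targets lie above 1 CPM, while the colon differentiation genes and most epithelial genes lie below it.

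Barcodes were next split by Mki67, into those without a UMI of it (4208 wild-type, 6469 humanized), those low in it (1248 and 1601) and those high in it (1249 and 1601). High means at or above the median count per 10000 UMIs of the Mki67-positive barcodes of that library. The classes differ in depth, with medians of 14175.5, 24627 and 20564 UMIs in the wild-type and 10914, 19227 and 14286 in the humanized library. Top2a, a gene of G2 and mitosis given for scale, had log2 ratios of high over zero of 2.84 and 2.36, and Cdc20 of 2.05 and 1.73.

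Of the 7 measured members, 0 were 1.5-fold apart in both libraries, beside 5.39% of 11769 genes measured in both (4.78% higher and 0.603% lower). Within the wild-type library 7.47% of genes were higher and 2.02% lower, and within the humanized library 5.80% and 1.45%. Ccnd1 stood at 653, 725 and 747 CPM in the zero, low and high classes of the wild-type library and at 636, 738 and 762 CPM in the humanized library. Its log2 ratios of high over zero were 0.19 (0.17 to 0.22) and 0.26 (0.24 to 0.29). In both libraries the zero class was the lowest.

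Tcf7l2 stood at 19.0, 20.6 and 24.6 CPM in the wild-type and at 18.2, 20.7 and 21.4 CPM in the humanized library, with log2 ratios of 0.37 (0.24 to 0.51) and 0.24 (0.09 to 0.38). Cd44 stood at 328, 344 and 355 CPM and at 304, 320 and 343 CPM, with log2 ratios of 0.12 and 0.18. With Mki67 classes set on counts thinned to 5000 UMIs, Cd44 turned to -0.02 in the humanized library. Thus Ccnd1 and Tcf7l2 kept their direction under that setting in both libraries, and Cd44 kept it only in the wild-type library.

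Myc and Sox9 were lower in the Mki67-high barcodes. Myc stood at 93.9, 94.0 and 80.5 CPM in the wild-type and at 76.8, 77.0 and 66.3 CPM in the humanized library. The zero and low classes did not differ beyond their intervals. Its log2 ratios of high over zero were -0.22 (-0.29 to -0.15) and -0.21 (-0.29 to -0.14). Sox9 stood at 647, 597 and 592 CPM and at 521, 497 and 469 CPM, with log2 ratios of -0.13 and -0.15. With classes set on thinned counts the wild-type ratio of Sox9 turned to 0.03.

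Axin2 stood at 2.00, 1.71 and 2.11 CPM in the wild-type and at 1.72, 2.32 and 2.09 CPM in the humanized library, with overlapping intervals throughout. Ctnnb1 lay between 105 and 111 CPM in all 6 classes. Of the Lgr5 UMIs, 5 were in wild-type Mki67-high barcodes and 4 in the zero class of each library.

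Of the lists, Wnt targets gave 17 genes measured in both libraries. Of these, 1 was 1.5-fold higher in Mki67-high barcodes, beside 4.78% of all genes. This was Birc5, which encodes the mitotic protein survivin, at 68.1 against 332 CPM and 83.2 against 304 CPM, log2 ratios of 2.29 and 1.87. The list's medians were 0.12 and 0.10, beside 0.10 and 0.09 for all genes. Of 9 ligand and release genes, 2 were lower, beside 0.603% of all genes. Wnt4 went from 2.11 to 1.05 CPM and from 2.06 to 1.08 CPM, a log2 ratio in the humanized library of -0.93 (-1.56 to -0.34) and intervals of the levels that do not overlap in either library. Porcn, the acyltransferase that lipid-modifies Wnt proteins, went from 6.86 to 3.65 CPM and from 6.58 to 3.90 CPM, log2 ratios of -0.91 and -0.75. None of the 11 receptors, 4 inhibitors, 15 relay genes, 14 nuclear effectors or 7 stemness genes measured was 1.5-fold apart in both libraries. Of all genes, 5.39% were.

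**Figure D3:**
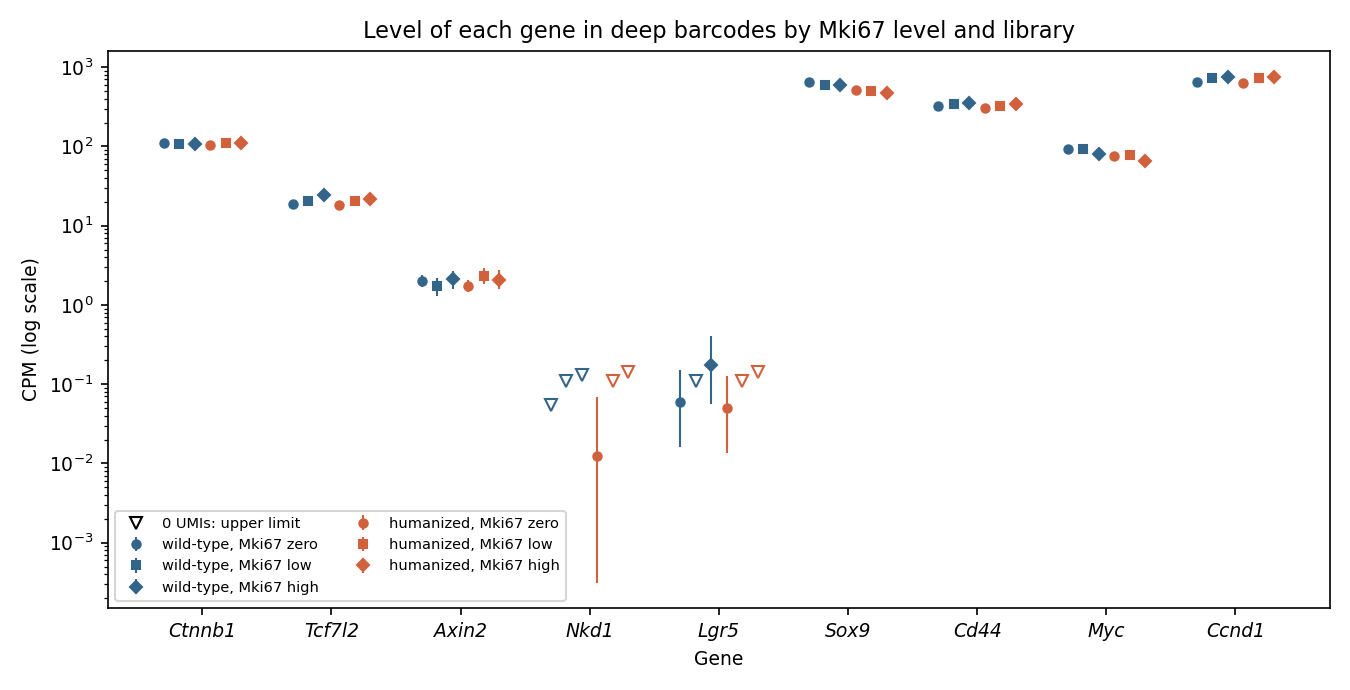
Level in CPM (log axis) of the 9 genes in deep barcodes without Mki67, low in Mki67 and high in Mki67 (marker shape) of each library (colour); bars are 95% counting intervals and open triangles upper limits where there was no UMI. Differences between Mki67 classes are small for each gene, and Nkd1 and Lgr5 lie below 1 CPM.

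Whether targets move together was read from correlations over single barcodes, each thinned to 5000 UMIs so that depth is equal, on a scale of log2(count + 1). All barcodes of a library share its preparation and free RNA, so the values describe these libraries and carry no p. Over the pairs of the 7 targets that could be computed, the median Pearson correlation was 0.013 (15 pairs, 6705 barcodes) in the wild-type and 0.042 (10 pairs, 9671 barcodes) in the humanized library. Counts after thinning limit these values. Axin2 was left in 59 and 98 barcodes, Lgr5 in 3 and 0 and Nkd1 in 0, so that no correlation of Axin2 with Nkd1 could be computed.

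The 4 abundant targets moved together weakly. Sox9 and Cd44 gave the highest correlation, 0.122 for wild-type and 0.118 for humanized hosts. Ccnd1 with Sox9 gave 0.0951 and 0.0636, Ccnd1 with Myc 0.0893 and 0.0689, and Myc with Sox9 0.0703 and 0.0706. Ccnd1 with Cd44 gave 0.0514 and 0.0906, and Myc with Cd44 only 0.0174 and 0.0213. All 6 pairs were above 0 in both libraries, with medians of 0.080 and 0.070. The median gene was also above 0 with each of these targets, between 0.0077 and 0.0273, and 32.6% and 25.3% of genes had a higher correlation with Cd44 than Myc had. In wild-type Mki67-high barcodes alone, Myc with Cd44 was -0.0078.

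Axin2 showed no clear relation to them in these thinned counts. Its correlations with Myc, Ccnd1, Sox9 and Cd44 lay between -0.0215 and 0.0225 over both libraries. In the wild-type library 53 barcodes held Axin2 and Ccnd1 together, where the product of their shares gives 51.9, and in the humanized library 92, where it gives 85.8. With so few Axin2 counts, a weak relation was not detectable at this depth.

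Genes known to act in one process give the scale. Top2a with Mki67 reached 0.363 and 0.298, Gbp2 with Gbp3, a pair of interferon-induced GTPases, 0.226 and 0.281, the replication helicase pair Mcm5 and Mcm6 0.153 and 0.152, and the collagen pair Col1a1 and Col3a1 0.199 and 0.113. Every pair of the 4 abundant targets but Sox9 with Cd44 in the humanized library lay below all 4 reference pairs of its own library. The covariance was also divided by the variance in excess of Poisson counting. The 6 target pairs then ran from 0.051 to 0.327 in the wild-type and from 0.072 to 0.301 in the humanized library, with medians of 0.18 and 0.22. On that scale Top2a with Mki67 gave 0.855 and 0.808, Gbp2 with Gbp3 0.691 and 0.655, and Mcm5 with Mcm6 1.09 and 0.869, an estimate that can pass 1. Col1a1 with Col3a1 gave 0.384 and 0.190, so that on this scale its humanized value lay below the median of the target pairs.

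Spread beyond counting noise was clear in Ccnd1 and Sox9, smaller in Myc and Cd44, and slight or absent in Ctnnb1, Tcf7l2 and Axin2. At 5000 UMIs per barcode, the variance of Ccnd1 was 2.04 and 2.05 times its mean and that of Sox9 1.97 and 1.93 times, where pure counting gives 1. Ccnd1 had a median of 3 UMIs in both libraries, with quartiles of 1 and 5. Sox9 had medians of 3 and 2, with quartiles of 1 and 4. Myc gave 1.31 and 1.23, Cd44 1.29 and 1.32, Ctnnb1 1.07 and 1.10, Tcf7l2 1.04 and 1.02 and Axin2 1.15 and 0.990. Top2a gave 2.68 and 2.29.

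Of the remaining pairs, Ccnd1 with Tcf7l2 gave 0.0518 and 0.0515, and Ctnnb1 with Sox9 0.0481 and 0.0476. Ctnnb1 with Ccnd1 had opposite signs, -0.0232 and 0.0482. Ctnnb1 with Axin2 gave -0.00828 and 0.0119. On the log2 scale Ctnnb1 passed 0.05 with none of the targets in either library, but Sox9 was the fifth gene closest to it, with 0.439% and 0.307% of genes above. With counting noise removed, Ccnd1 with Tcf7l2 gave 0.356 and 0.455, above the highest target pairs at 0.327 and 0.301. Ctnnb1 with Sox9 gave 0.287 and 0.196 there. Such values divide by the slight excess variance of Tcf7l2 and Ctnnb1.

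**Figure D4:**
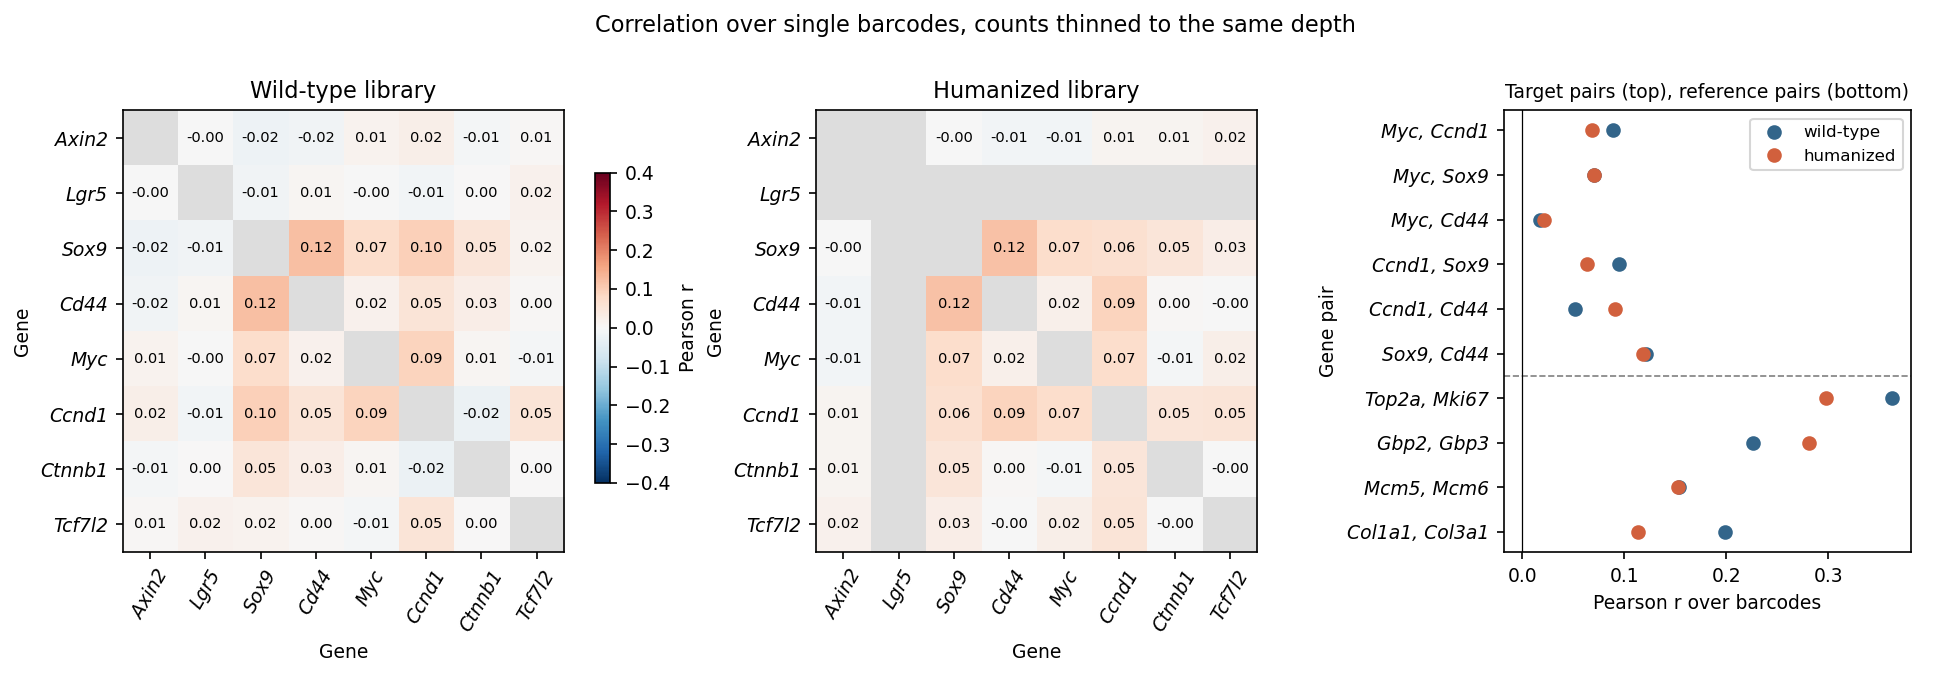
Pearson correlation over deep barcodes thinned to 5000 UMIs on a log2(count + 1) scale: all pairs in the wild-type (left) and humanized (middle) library, grey where no value could be computed, and the pairs of the 4 abundant targets beside 4 reference pairs (right). Target pairs reach 0.122 at most, Top2a with Mki67 0.363.

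Ranking 6835 other genes that were seen in at least 5% of thinned deep barcodes of both libraries showed what each target ran with most closely, by the lower of both libraries' correlations. Sox9 was the second gene for Cd44, after the chaperone gene Hsp90aa1 (0.124 and 0.134) and ahead of Cald1, Hsp90ab1 and Ahnak. Only 0.0146% and 0.0439% of genes had a higher correlation with Cd44 than Sox9 had. For Sox9 the leading genes were H3f3b (0.179 and 0.187), Jun (0.174 and 0.209), Cald1, Hsp90aa1 and Btg1. Correlations of at least 0.1 in both libraries were reached by 21 genes for Sox9 (0.307%) and 3 for Cd44 (0.0439%).

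Ccnd1 ran with many more genes, 173 at 0.1 or above in both libraries (2.53%). It was led by Actb (0.326 and 0.349), S100a6 (0.276 and 0.275), Ranbp1 (0.249 and 0.252), Fosl1 (0.244 and 0.236) and Eif4a1 (0.234 and 0.307). Against these, the values of Ccnd1 with Sox9 were passed by 3.83% and 13.4% of genes. Thinned Ccnd1 also ran with a barcode's total UMIs, at 0.179 and 0.196, and with its mitochondrial share, at 0.150 and 0.115. Sox9 gave 0.055 and 0.070 with total UMIs and 0.119 and 0.117 with mitochondrial share. Cd44 gave 0.075 and 0.099 with total UMIs and 0.067 and 0.087 with mitochondrial share, and Myc at most 0.030 with either. The part of depth and mitochondrial share in the pairs was not tested.

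Myc reached 0.1 in both libraries with 2 genes (0.0293%), Fosl1 (0.107 and 0.108) and Jun (0.103 and 0.107), followed by Plk2, Cnbp and Trib3. Jun and Fosl1 are AP-1 genes that were also on the target list. Ccnd1 stood high for Myc, with 0.102% and 0.439% of genes above it, whereas 4.68% and 11.02% of genes stood above Myc for Ccnd1. The leading genes for Axin2 were Nupr1, Anxa2, Sparc, Tgfbr2 and S100a10, all at 0.045 or less. Lgr5 and Nkd1 were too rare to be ranked.

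The same relations were read as levels, by taking barcodes rich and poor in 1 target after thinning and comparing the summed full counts of the others. Sox9-rich barcodes held 4 or more thinned UMIs (2418 and 2539 barcodes) and Sox9-poor ones at most 1 (1972 and 3776). In Sox9-rich barcodes Myc stood at 103 against 77.7 CPM in the wild-type and 87.1 against 66.7 CPM in the humanized library. This is a log2 ratio of 0.40 (0.34 to 0.47) and 0.38 (0.32 to 0.45). Cd44 followed at 0.24 and 0.28 and Ccnd1 at 0.18 and 0.09, all in the same direction.

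Ccnd1-rich barcodes held 5 or more thinned UMIs (1831 and 2501) and Ccnd1-poor ones at most 1 (1889 and 2782). Myc was higher in them by log2 ratios of 0.42 (0.35 to 0.49) and 0.35 (0.28 to 0.43), and Tcf7l2 by 0.52 (0.37 to 0.68) and 0.61 (0.45 to 0.77). Tcf7l2 in the humanized library was thereby past 1.5-fold, as were 9.35% of genes there and 6.29% in the wild-type library. The rich barcodes were also deeper, with medians of 18732 against 14117 and 14131 against 10475 UMIs. Sox9 was higher by 0.19 and 0.12 and Cd44 by 0.10 and 0.20.

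Axin2 differed in size between the libraries, and that difference was not tested. In Sox9-rich wild-type barcodes it was lower, at 1.44 against 2.70 CPM (68 and 97 UMIs), a log2 ratio of -0.90 (-1.37 to -0.44), past 1.5-fold as were 1.79% of genes. In the humanized library, where 1.69% of genes were, it was at -0.03 (-0.49 to 0.42). In Ccnd1-rich wild-type barcodes it was higher, at 0.66 (0.14 to 1.20), past 1.5-fold as were 6.29% of genes. In Ccnd1-rich humanized barcodes it was at 0.04 (-0.46 to 0.53). The signs were alike, but both humanized intervals span 0. Myc-rich and Cd44-rich barcodes differed from poor ones by less than 1.5-fold in every other measured member, beside 1.02% and 0.495% of genes for Myc and 0.722% and 0.839% for Cd44. Cd44-rich barcodes held 2 or more thinned UMIs. Cd44-poor ones held at most 1 for wild-type hosts but 0 for humanized hosts. Cd44 itself was thus split less far for wild-type hosts, by a log2 ratio of 0.82 against 1.44, and the libraries are not set side by side at equal cuts.

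**Figure D5:**
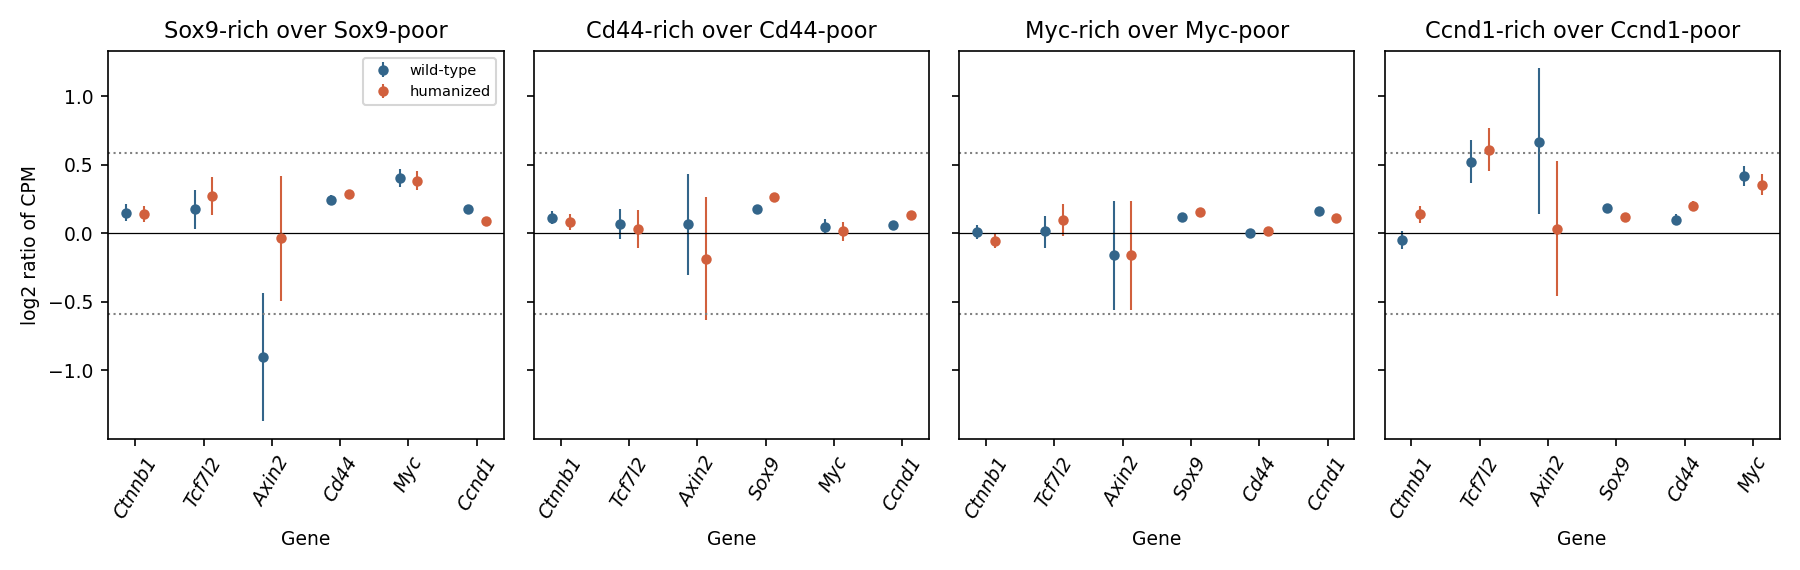
Log2 ratio of CPM of the other genes in barcodes rich over poor in Sox9, Cd44, Myc or Ccnd1 (panels), by library (colour), with 95% counting intervals; dotted lines mark 1.5-fold. Myc was higher in Sox9-rich and Ccnd1-rich barcodes of both libraries, and Axin2 has wide intervals. Cd44-poor barcodes were cut at unlike counts in each library.

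Barcodes with an Axin2 UMI were compared with all others. They are barcodes with a UMI and not shown to be cells that express Axin2, since background could not be set apart. They numbered 222 in the wild-type library, of which 198 had 1 UMI, 18 had 2 and 6 had 3, and 262 in the humanized library, of which 252 had 1 and 10 had 2. They were deeper, with medians of 22172 against 16670 and 15720 against 12447 UMIs. Tcf7, itself a TCF gene and a Wnt target, was higher in them, at 32.6 against 20.0 CPM and 34.5 against 21.7 CPM, log2 ratios of 0.70 (0.48 to 0.92) and 0.67 (0.43 to 0.89). It was past 1.5-fold in both, as were 9.26% and 8.38% of genes in either direction. Lef1, of the same family, gave opposite values, 0.61 (-0.22 to 1.34) from 16 UMIs and -1.66 (-3.94 to -0.09) from 3 UMIs. Tcf7l2 was higher by 0.43 (0.18 to 0.66) and 0.38 (0.10 to 0.64), Ctnnb1 by 0.28 and 0.20, and Ccnd1 by 0.24 and 0.11.

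The other targets did not share 1 direction in these barcodes. Myc was at -0.36 (-0.51 to -0.22) and -0.12 (-0.28 to 0.03), Sox9 at -0.21 and -0.02, and Cd44 at 0.06 and 0.07. Of 16 measured Wnt targets besides Axin2, 2 were 1.5-fold higher and 0 lower in the wild-type library. In the humanized library 1 was higher and 2 lower, and the medians were 0.05 and 0.09. The 2 lower genes, Lef1 and Id2, had only 3 and 8 UMIs in the Axin2-positive barcodes. Of all genes, 9.26% and 8.38% were 1.5-fold apart in either direction. Jun was at 0.13 (0.09 to 0.18) and 0.18 (0.13 to 0.22). Only part of the fibroblast markers moved with Axin2. Of 6 measured, 4 and 2 were 1.5-fold higher and 0 lower, with medians of 0.82 and 0.52. Those past it in both libraries were the collagen genes Col1a1 and Col3a1. Col1a1 stood at 20.0 against 7.17 CPM and 31.2 against 12.2 CPM. Dcn was at -0.34 and -0.16, and Pdgfra at 0.31 (-0.35 to 0.90) and 0.55 (-0.16 to 1.18). Lum and Thy1 had 0 UMIs in Axin2-positive barcodes of both libraries and Fap 1 and 0, too few to measure. The part of collagen-expressing cells in the Axin2 values was not tested.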

How the data were processed

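Droplet libraries of dissociated MC38 tumours were made on a DNBelab C instrument after Percoll enrichment, per the labels' protocols. Values in the deposited matrices are UMI counts, not normalized. Per the file headers, PISA 1.0 wrote them. The submitters' processing notes name GRCm39. The sources used here name no aligner, annotation or cell calling. The deposited files give genes by symbol, without coordinates. Of 4 samples, the 2 oligo libraries were left out here. Each gene list held 0 genes without a UMI in its library, and 22649 genes stood in both.

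The genes and lists were chosen with earlier results of these data known. Counts were summed per barcode class and scaled to CPM. Exact Poisson, Clopper-Pearson and conditional intervals are at 95%. A gene was measured in a ratio with at least 100 UMIs over both sums and a listing in both libraries, and a fold of 1.5 was the call. A sum of 0 has a floor of 3 counts. Barcodes were thinned without replacement to 5000 UMIs for correlations, and to 1000 for shares beside CD3 barcodes, so 0 deep barcodes were lost. Rich and poor barcodes lie at or beyond the upper (75%) and lower (25%) quantile of thinned counts, ties included, except that Myc-poor barcodes held 0 thinned Myc UMIs and Myc-rich ones at least 1. Named besides the 9 genes were list genes 1.5-fold apart between libraries or by Mki67 level in both, up to 5 each way, and the 5 genes closest to each target. Other list genes and the Axin2-positive, rich and poor classes were chosen after their values were seen. No doublet caller was run here, and barcodes with most UMIs were left out as an alternative. The log2 ratio, its conditional interval and the correlation with counting noise removed were tested on simulated data. Thinning was checked on real wild-type barcodes, and the other statistics were not tested this way. Tools were Python 3.11.15, numpy 2.4.6, scipy 1.17.1, pandas 2.3.3 and matplotlib 3.10.9.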

Additional observations from a re-analysis of the deposited data

Results flagged for a closer look

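Ctnnb1 had estimates of opposite sign by Mki67 level in the libraries, with intervals that overlap. Its log2 ratio of Mki67-high over Mki67-zero barcodes was -0.02 (-0.08 to 0.04) in the wild-type and 0.081 (0.020 to 0.14) in the humanized library. The difference was not tested, and with classes set on thinned counts the wild-type ratio was 0.21.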

How the results depend on the processing

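Of 41 recomputed summary values, 37 stayed as reported. Without a minimum of UMIs, the genes 1.5-fold apart between libraries rose from 0 to 1, which was Lgr5 with its 9 and 4 UMIs. The median target correlation in the wild-type library rose to 0.080 when restricted to Sox9, Myc, Ccnd1 and Cd44, and with counting noise removed it was 0.18 there and 0.22 in the humanized library, alternatives chosen after seeing the data. Scaling on the median gene changed signs between libraries as given above. Pair correlations moved in 17 values and stayed in 473. Log2 ratios by Mki67 level moved in 23 and stayed in 89, and those between libraries moved in 7 and stayed in 56. Without thinning, Sox9 with Cd44 was 0.229 and 0.222. In Mki67-high wild-type barcodes alone it was 0.0474. A limit of 10% mitochondrial UMIs removed 0 barcodes, so it tested nothing. Axin2 with Nkd1 gave no value under any alternative. No paired analysis was possible because each genotype had 1 library, and no library could be left out for the same reason. Depth limits Axin2, Lgr5 and Nkd1 most.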

Other observations

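A single wild-type deep barcode of 16455 UMIs held most of the keratin and Epcam transcripts named here. It carried 145 of 159 Krt18, 93 of 129 Krt8, 75 of 96 Krt19 and 21 of 23 Epcam UMIs. It also held 18 of 24 UMIs of Cd24a and 1 of the 9 Lgr5 UMIs, but 0 of Axin2, and only 6 each of Sox9 and Ccnd1. The humanized library had 1 Krt18 UMI and 1 Epcam UMI in all deep barcodes.

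Rare pathway genes met in few barcodes. Lgr5 and Axin2 were together in 2 of 9 Lgr5 barcodes in the wild-type and 1 of 4 in the humanized library. The product of their shares gives 0.298 and 0.108 barcodes. Znrf3 and Apcdd1 were together in 35 wild-type and 23 humanized barcodes, where the product gives 23.8 and 17.5. Axin2 and Lef1 were together in 13 and 3, where it gives 7.75 and 6.69. These products have no adjustment for depth.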
